A study of Homo sapiens with 6 samples.

Results

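The RNA of 10 genes for amino acid sensing by mTORC1, the kinase complex that couples growth to nutrients, was measured. The arrays compared cells resistant to arginine deprivation with their parental line, and mTORC1 activity was not measured. The genes were DDIT4, SESN2, SLC38A9, RRAGA, RRAGC, RRAGD, FLCN, TSC2, DEPTOR and RPTOR, chosen by name with earlier results of these data known. All 10 were on the array, with 16 probes of 47225 and out of 20044 named genes. The cells were Ju77, a human malignant mesothelioma line labelled as coming from lung. One group of 3 arrays came from Ju77 cells labelled ADI-PEG20 resistant, and the other group of 3 from parental Ju77 cells. The drug ADI-PEG20 is arginine deiminase carrying polyethylene glycol chains, and it destroys arginine outside the cell. Cells were harvested for RNA 1 day after seeding, and the sources used here do not say whether drug was present. The 3 repeats of each line carry numbers but are not called separate cultures, so p-values measure only the spread between these arrays, which may be technical. With 1 line per group, resistance and other differences that separate these lines cannot be told apart.

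When amino acids are plentiful, Rag GTPases on the lysosome recruit mTORC1, which there meets its activator RHEB. Sensors relay the supply of single amino acids: Sestrins bind leucine, CASTOR1 binds arginine in the cytosol, and SLC38A9 reports arginine inside the lysosome. The TSC complex switches RHEB off, and DDIT4 acts through it. In mesothelioma cells that cannot make arginine, arginine supply is what ADI-PEG20 takes away.

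All arrays had between 19024 and 20113 probes detected, and 19024 of these was the count of resistant replicate 2. Of 8 mesothelial markers 6 were detected on all parental and 5 on all resistant arrays, with UPK3B and KRT5 missing in both groups, UPK3B being detected on 1 parental array. Of the 6 tested mesothelial markers, CALB2 was higher by 2.74, PDPN (-2.38, detected on 1 of 3 resistant arrays), LRRN4 (-0.79) and BNC1 (-0.61) were lower, and MSLN (0.12) and WT1 (-0.33) were not called. The part of these shifts in the results below was not tested. No marker of leukocytes (5 on the array) or endothelium (4) was detected on any array, and of 5 fibroblast markers PDGFRB alone was detected, on all arrays. Values below are log2 intensities after background correction and quantile normalisation, and differences are resistant minus parental, with 3 arrays a group and the number of arrays limiting precision.

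Of the 10 genes 9 passed the detection filter, and FLCN did not. DEPTOR passed it through the resistant arrays alone, where it was higher, so its place among the higher genes is not independent of the filter. Without the filter its limma adjusted p was 0.0248. DDIT4, RRAGD and SESN2 were lower in the resistant cells, TSC2 and DEPTOR were higher, and SLC38A9, RRAGA, RRAGC and RPTOR did not pass the test (limma, Benjamini-Hochberg adjusted p under 0.05 over all genes). That is 5 of 9 called, where 45.3% of all 10672 tested genes were called, so the share of members called was near that of the array. By direction, 2 of 9 were higher against 22.3% of all genes and 3 of 9 lower against 23.0%. The median log2 difference of the 9 was 0.04, and that of all tested genes was -0.0039. The same 5 members were those whose groups did not overlap, against 56.0% of all genes. DDIT4 stood out by size: 2.24% of tested genes had a larger absolute difference, against 11.3% for DEPTOR, 27.7% for TSC2, 27.8% for RRAGD and 31.7% for SESN2. Scaling the arrays to a common median, which moved the median of all genes to -0.15, left 1 member higher and 3 lower.

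**Figure D1:**
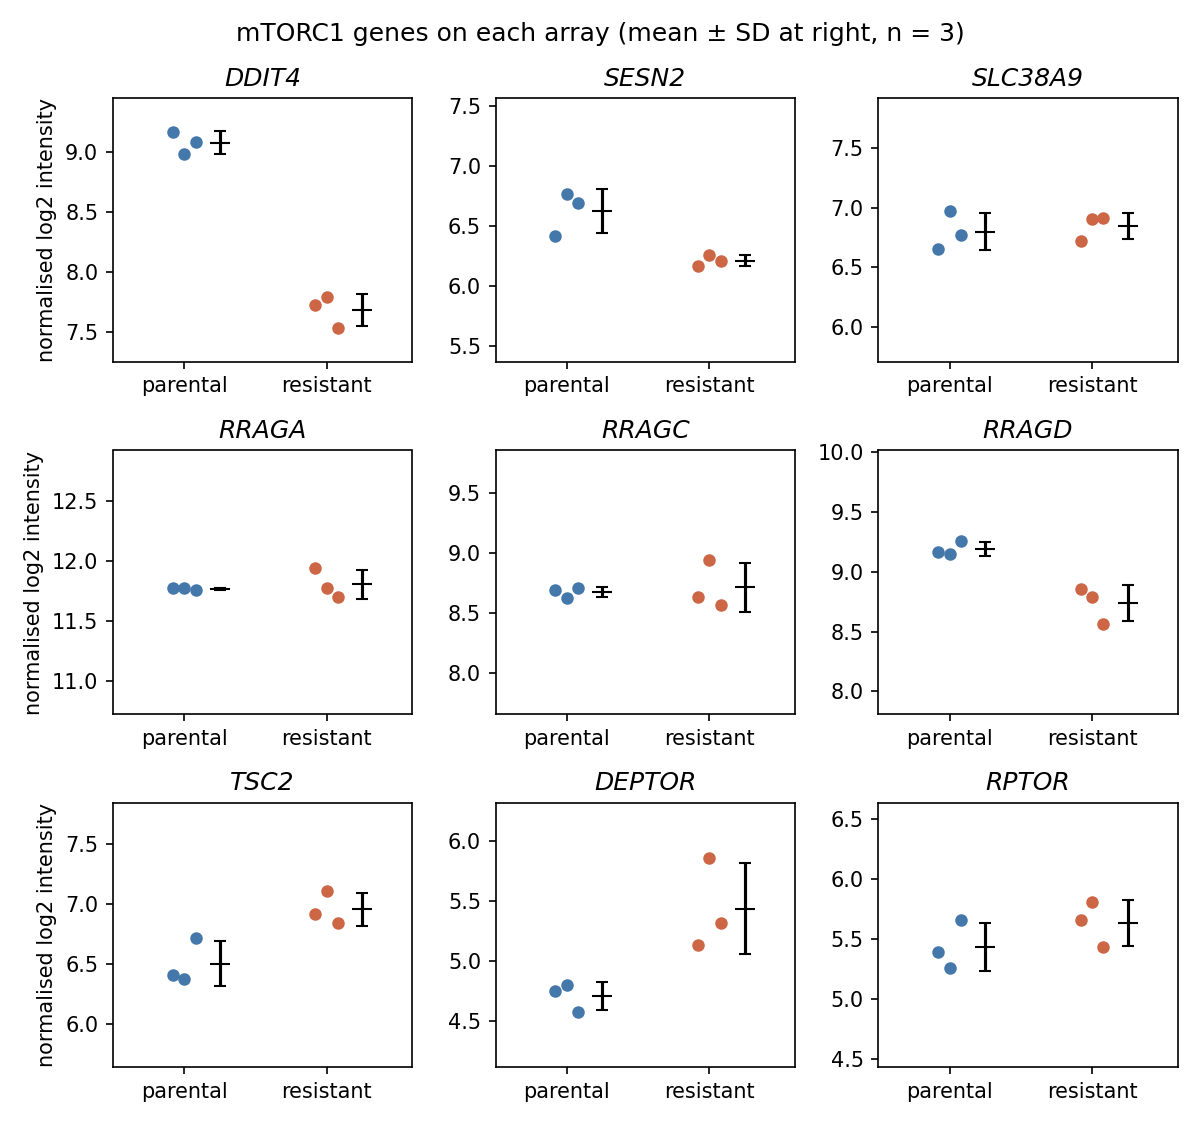
Normalised log2 intensity (y axis, each panel spanning the same range of log2 units) of the 9 tested genes on the 3 parental and 3 resistant arrays, as points, with mean and SD beside them. DDIT4, SESN2 and RRAGD lie lower and TSC2 and DEPTOR higher on every resistant array than on any parental array, while the groups of the other 4 genes overlap.

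Among the brakes on mTORC1, DDIT4 fell and TSC2 rose. DDIT4, also called REDD1, is a stress-induced protein that restrains mTORC1 through the TSC complex, and its gene is a known target of ATF4 and of hypoxia-inducible factor, the reason for the motifs searched below. Its probe (ILMN_1661599) read 9.17, 8.98 and 9.09 on the parental arrays and 7.72, 7.79 and 7.53 on the resistant arrays. The groups were far apart, with every resistant array more than 1 log2 unit below every parental one. The fall was 1.40 on the log2 scale (SE 0.10, 95% interval from -1.62 to -1.17), which is 2.63-fold, with limma adjusted p = 2.44e-05. Before any correction the deposited intensity of this probe was 691 ± 56.7 in the parental and 289 ± 19.8 in the resistant cells (SD, n = 3). The 40 tested genes that flank DDIT4 on chromosome 10 had a median log2 difference of -0.30, with 19 lower and 6 higher. Over all tested genes 23.0% were lower and 22.3% higher, the shares to set beside this and later flanking counts. The part of the neighbourhood in the DDIT4 difference was not tested.

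TSC2, tuberin, is the subunit of the TSC complex that turns RHEB off. Its brighter probe (ILMN_1714216) read 6.41, 6.38 and 6.72 on the parental arrays and 6.92, 7.11 and 6.84 on the resistant arrays. The groups did not overlap, with parental replicate 3 closest to the resistant arrays. TSC2 rose by 0.45 (SE 0.12, adjusted p = 0.0149). The call was lost without resistant replicate 2 (difference 0.38, adjusted p = 0.0520), without parental replicate 1 (0.41, 0.0551), without parental replicate 2 (0.39, 0.0523) and under median scaling (0.32, 0.0565), and without background correction the difference was 0.23. In the deposited intensities of the same probe the groups overlapped, at 202 ± 19.3 against 214 ± 8.51 (SD, n = 3). The second TSC2 probe (ILMN_1762631) was detected on no parental and 2 resistant arrays and was not tested. The 40 genes that flank TSC2 on chromosome 16 had a median of -0.0071, with 7 higher and 10 lower.

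Promoters are shown for the most changed member, DDIT4, and for SESN2 and TSC2, a lower and a higher member, a choice made after their values were seen. Each sequence is the 250 bases before the start of each gene, from RefSeq, GRCh38.p14, on the plus strand at chr10:72273674-72273923 for DDIT4, chr1:28259268-28259517 for SESN2 and chr16:2047735-2047984 for TSC2. Capitals mark matches, on either strand, to TGATGNAA, the element that ATF4 binds with C/EBP partners, to CACGTG, an E-box, and to ACGTG, the core of the hypoxia response element, which the E-box contains.
DDIT4: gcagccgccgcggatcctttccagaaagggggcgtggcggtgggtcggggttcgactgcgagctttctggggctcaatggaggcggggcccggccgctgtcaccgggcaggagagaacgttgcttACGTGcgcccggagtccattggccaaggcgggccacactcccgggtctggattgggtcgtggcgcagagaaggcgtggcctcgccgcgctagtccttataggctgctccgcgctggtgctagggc
SESN2: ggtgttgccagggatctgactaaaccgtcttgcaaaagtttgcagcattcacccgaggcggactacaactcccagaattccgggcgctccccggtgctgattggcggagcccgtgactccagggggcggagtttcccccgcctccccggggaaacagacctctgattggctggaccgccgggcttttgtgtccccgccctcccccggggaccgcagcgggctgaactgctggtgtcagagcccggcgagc
TSC2: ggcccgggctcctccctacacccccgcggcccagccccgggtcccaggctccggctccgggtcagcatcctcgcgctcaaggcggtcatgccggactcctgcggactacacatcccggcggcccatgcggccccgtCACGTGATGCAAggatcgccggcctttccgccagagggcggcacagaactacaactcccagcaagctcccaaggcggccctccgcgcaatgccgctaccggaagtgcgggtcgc

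The DDIT4 window held ACGTG, starting 125 bases before the gene's start, and no match to TGATGNAA. The SESN2 window held none of the searched motifs. TSC2 has a pair of annotated starts and so a window for each. In the printed one TGATGNAA, starting 110 bases before the gene's start, overlaps CACGTG, starting at 114, while the other, at chr16:2047952-2048201, held none of the motifs. Over all 35116 such windows, 3.14% held TGATGNAA, 6.35% held CACGTG and 18.5% held ACGTG. Of the 10 members 7 had a promoter entry, in 10 windows, and RRAGA, RRAGD and DEPTOR did not match. RRAGC was the other member with a CACGTG, and TGATGNAA was found in no other window of the members. A match describes letters only and is not a binding site.

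Of the sensors, SESN2 fell and SLC38A9 did not pass the test. SESN2, a leucine-binding Sestrin that holds mTORC1 back when leucine is scarce, read 6.42, 6.77 and 6.70 on the parental arrays and 6.17, 6.26 and 6.21 on the resistant arrays (ILMN_1751598). All resistant arrays lay below all parental arrays, and parental replicate 1 came nearest to them. Its mean fell by 0.42 in log2 units, or 1.33-fold, with SE 0.10 and adjusted p = 0.0126. SESN2 is a dim probe, with deposited intensities of 210 ± 15.1 in the parental and 167 ± 5.50 in the resistant cells (SD, n = 3), and without background correction the log2 difference was -0.19 (adjusted p = 0.0197). SLC38A9, a lysosomal amino acid transporter and arginine sensor, ranged from 6.66 to 6.97 on the parental arrays and from 6.72 to 6.91 on the resistant arrays. The means differed by 0.05 (adjusted p = 0.746), and the 95% interval, from -0.20 to 0.29, includes changes in both directions. Its 40 flanking tested genes had a median of -0.36, with 22 lower and 1 higher.

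The Rag GTPases work as heterodimers of RRAGA or RRAGB with RRAGC or RRAGD, and within the family only RRAGD among the 3 members passed the test. RRAGD, whose gene is a known target of the lysosomal transcription factors TFEB and TFE3, read 9.16, 9.15 and 9.25 on the parental arrays and 8.85, 8.78 and 8.56 on the resistant arrays (ILMN_1699772). The groups were separate. RRAGD fell by 0.45 in log2 units, or 1.37-fold (SE 0.10, adjusted p = 0.00608). Its deposited intensity was 739 ± 55.9 against 491 ± 54.2 (SD, n = 3). The 40 genes that flank it on chromosome 6 had a median of 0.09, with 12 higher and 6 lower. RRAGA ranged from 11.76 to 11.78 on the parental arrays and from 11.70 to 11.94 on the resistant arrays, so that the means differed by 0.04 (adjusted p = 0.765, 95% interval from -0.16 to 0.23). RRAGC ranged from 8.63 to 8.71 and from 8.56 to 8.94, and the means differed by 0.04 (adjusted p = 0.800, 95% interval from -0.21 to 0.29). For both, the resistant arrays spanned the parental ones.

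RRAGB, the remaining Rag and taken from the pathway lists, rose by 0.66 (SE 0.08, adjusted p = 4.94e-04), with both of its kept probes higher in a fit over the 17843 kept probes, of which 38.8% were called. The changes of the Rag genes were compared with each other by an exact two-sided permutation test over the 6 arrays, in a family of 9 pairs of paralogues with the Sestrins, where the smallest possible p is 0.1 and the threshold cannot be reached. As signed log2 differences, the change of RRAGC minus that of RRAGD was 0.49, that of RRAGB minus that of RRAGD was 1.11, and that of RRAGA minus that of RRAGB was -0.62, each with exact p = 0.1 (Benjamini-Hochberg 0.129). RRAGA and RRAGC differed in their change by -0.0031 (exact p = 0.9, Benjamini-Hochberg 0.9).

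**Figure D2:**
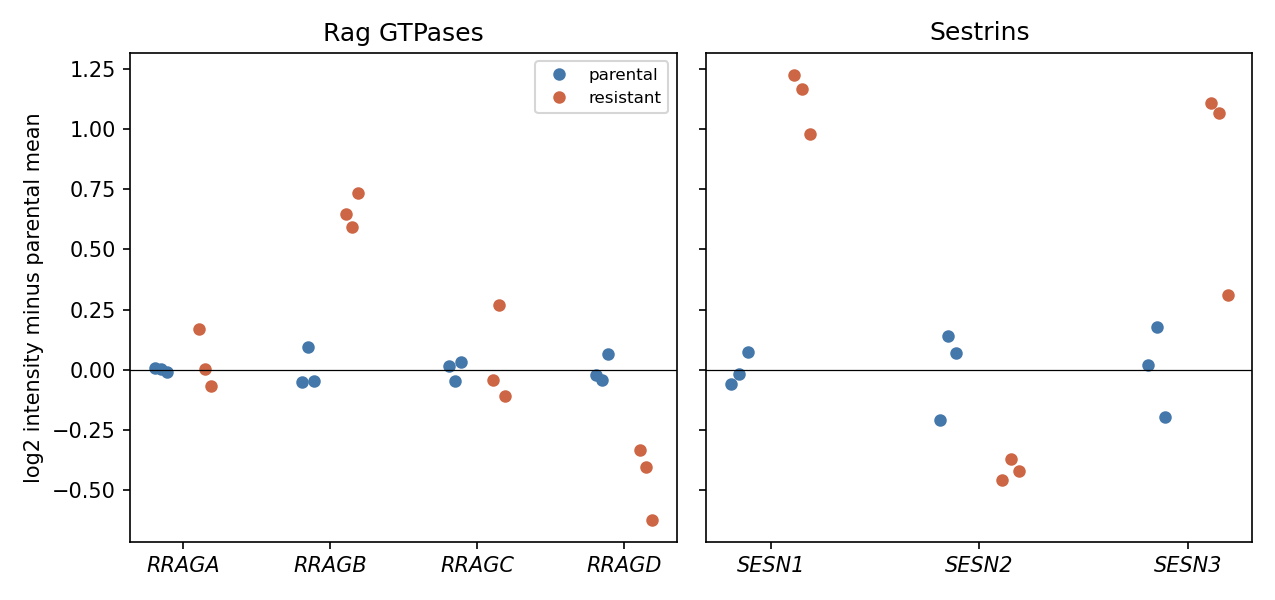
Log2 intensity minus the gene's parental mean (y axis) for the 4 Rag GTPase genes and the 3 Sestrin genes, with each point an array. RRAGB lies higher and RRAGD lower on all resistant arrays, and SESN1 and SESN3 lie higher where SESN2 lies lower.

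FLCN, folliculin, acts on RRAGC and RRAGD as a GTPase-activating protein and so controls TFEB and TFE3. Its 4 probes stayed near background, each detected on 0 to 2 arrays of either group, and none was tested. In the 5 alternatives that tested FLCN its log2 difference lay between -0.34 and 0.25, with no call (adjusted p of at least 0.157). The deposited intensities of its probe ILMN_1814952 were 136, 142 and 137 on the parental arrays and 146, 121 and 131 on the resistant arrays, and the groups overlapped. The partners of FLCN, FNIP1 and FNIP2, had log2 differences of -0.06 and 0.21 and none was called by limma (adjusted p = 0.577 and 0.0586), with 1 of the 2 at an unadjusted p under 0.05.

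Of the mTOR complex members, DEPTOR rose from below detection and RPTOR did not pass the test. DEPTOR, an inhibitor that binds mTOR directly, read 4.75, 4.80 and 4.57 on the parental arrays, where its probe (ILMN_1756685) was not detected, and 5.13, 5.86 and 5.32 on the resistant arrays, where it was. The groups did not overlap, and resistant replicate 2 was the highest. With no DEPTOR probe detected on the parental arrays, its fold is given as at least 1.41 on this background-corrected scale. That bound was not itself tested, and it does not allow for the spread between arrays or for other settings. The limma test was of the measured means, 4.71 ± 0.12 and 5.43 ± 0.38 (SD, n = 3), which differed by 0.73 (adjusted p = 0.0109). The deposited intensities were 127 ± 1.48 and 139 ± 6.77 (SD, n = 3), close to the array medians of 119 to 132. The second DEPTOR probe (ILMN_2172755) was detected on no parental and 2 resistant arrays, at 121 ± 10.1 and 128 ± 10.2 (SD, n = 3), with overlapping groups. Without background correction the log2 difference of the first probe was 0.22, and with a detection threshold of 0.01 DEPTOR was not tested. Its 40 flanking tested genes on chromosome 8 had a median of 0.37, with 21 higher and 3 lower, and their part in the DEPTOR difference was not tested.

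RPTOR, raptor, is the scaffold that brings substrates to mTORC1. Its brighter probe (ILMN_1797816) ranged from 5.26 to 5.66 on the parental arrays and from 5.43 to 5.81 on the resistant arrays. The means differed by 0.20 (adjusted p = 0.256, 95% interval from -0.11 to 0.50), and the groups overlapped. Its other probe (ILMN_1793514) was detected on 1 array of each group and was not tested.

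**Figure D3:**
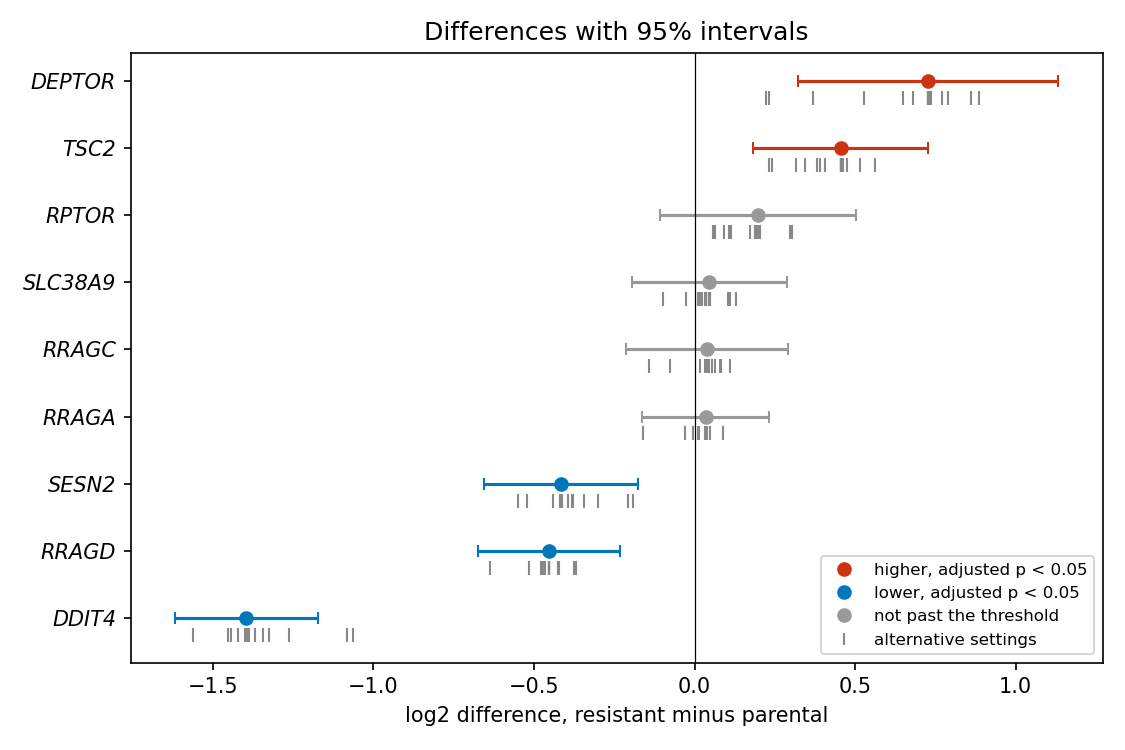
Log2 difference, resistant minus parental (x axis), of the 9 tested genes, with its 95% interval as a bar and the values under the alternative settings as ticks below it. DDIT4 at -1.40 lies far left of the others, and the ticks of DEPTOR reach down to 0.22.

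The other genes of the pathway changed in both directions. Of 75 genes in 11 lists 64 were tested, and 20 were higher and 19 lower, with a median log2 difference of -0.0094, beside the 22.3% higher and 23.0% lower of all genes. Median scaling gave 12 higher and 26 lower. Without background correction dim genes differed less, such as SESN3 with 0.27 and RHEBL1 with -0.30. The lists differed in which way their called members went, and none of these counts was tested against other genes. Each list is small, and the same shares of all genes are the ones to set beside each list count below.

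Among the other amino acid sensors 4 of 6 listed genes were tested. Of these 3 were higher and 1 lower, with a median of 0.98, beside 22.3% higher and 23.0% lower of all genes. CASTOR1, the cytosolic arginine sensor that releases its hold on GATOR2 when arginine is bound, read 5.47 in the parental and 6.80 in the resistant cells on average, a rise of 1.33 (SE 0.13, adjusted p = 1.34e-04). Without background correction the CASTOR1 difference was 0.55. CASTOR1 lies on chromosome 22, where 163 of 248 tested genes were higher and 6 lower (median 0.48), and of its 40 flanking genes 27 were higher. SESN1, a Sestrin known as a p53 target, rose by 1.12 (SE 0.09, adjusted p = 5.72e-05). SESN3, a Sestrin known as a FOXO target, was detected on no parental array and all resistant arrays. It thus passed the filter only through the group where it was higher, and at a detection threshold of 0.01 it was not tested. Its measured difference was 0.83 (limma adjusted p = 0.0133), and the bound of at least 1.44-fold was not itself tested. SAR1B, a leucine-binding GTPase of vesicle transport, was the lower gene of the list, at -0.46 (adjusted p = 0.00307), and is named after its value was seen. SESN1 and SESN3 went the other way from SESN2: the change of SESN1 was 1.54 above that of SESN2, and the change of SESN2 minus that of SESN3 was -1.24, each with exact permutation p = 0.1, the smallest possible (Benjamini-Hochberg 0.129).

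GATOR2, the complex that the Sestrins and CASTOR1 bind, had 2 of 5 tested genes lower and 1 higher. MIOS fell by 1.15 (SE 0.11, adjusted p = 1.39e-04) and SEH1L, shared with the nuclear pore, by 1.11 (SE 0.10, adjusted p = 8.39e-05), with its 3 kept probes all lower, from -1.11 to -0.49. The mean of the SEH1L probes gave -0.72. WDR59 rose by 0.39 (SE 0.09), a call lost under median scaling (adjusted p = 0.136). MIOS lies in a stretch of chromosome 7 where 31 of the 40 flanking genes were lower (median -0.51), while the flanks of SEH1L had a median of 0.02.

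GATOR1 with its anchor KICSTOR turns the Rags off, and 3 of 6 tested genes were lower and 1 higher. NPRL3 of GATOR1 fell by 0.54 (adjusted p = 0.0155, or 0.0515 without parental replicate 3), ITFG2 of KICSTOR fell by 0.40, and DEPDC5 of GATOR1, on chromosome 22, rose by 0.55 from detection on 1 parental array. DEPDC5 passed the filter through the resistant arrays alone, where it was higher. Without background correction the DEPDC5 difference was 0.16 (adjusted p = 0.0386), and at a detection threshold of 0.01 it was not tested. In Ragulator, the lysosomal anchor of the Rags, LAMTOR4 rose by 0.32 (adjusted p = 0.0158), which was lost under median scaling (0.12, adjusted p = 0.271), without resistant replicate 2 (adjusted p = 0.0565) and without parental replicate 3 (adjusted p = 0.0576). With RRAGB, 2 of the 5 tested genes of that list were higher and none was lower.

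In the TSC and RHEB list 1 of 4 tested genes was higher and 1 lower. RHEBL1, a relative of RHEB, fell by 0.90 (SE 0.18, adjusted p = 0.00504). It was detected on 3 parental and 2 resistant arrays, and so passed the filter through the parental arrays alone, where it was higher. Without the filter its limma adjusted p was 0.0121. TSC1, hamartin and the partner of TSC2, rose by 0.34 (adjusted p = 0.0317), with 2 of its 3 kept probes higher and a range from -0.02 to 0.49. The TSC1 call was lost in 7 of 18 alternatives: under median scaling, without the detection filter, with the mean of its probes, and without resistant replicate 1, resistant replicate 2, parental replicate 1 or parental replicate 3, with adjusted p from 0.0570 to 0.174. The mTORC1 core genes MTOR, MLST8 and AKT1S1 had log2 differences from -0.01 to 0.39, and none was called by limma (0 of 3 also at an unadjusted p under 0.05). Of 3 tested mTORC2 genes 2 were higher: PRR5L, an mTORC2-associated protein, by 1.40 (SE 0.07, adjusted p = 5.17e-06), and PRR5, on chromosome 22, by 0.56. Of the 3 kept PRR5 probes 1 was called, and they ranged from 0.24 to 0.56. Without background correction the PRR5 difference was 0.29.

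Of 12 tested effectors downstream of mTORC1 4 were higher and 4 lower. LPIN1, a phosphatidate phosphatase that mTORC1 keeps out of the nucleus, rose by 0.89 (SE 0.07, adjusted p = 5.42e-05), and ULK1, the autophagy kinase, rose by 0.60 (adjusted p = 0.00353). TFE3, a transcription factor that mTORC1 holds in the cytosol through the Rags, fell by 0.62 (adjusted p = 0.00199). The tested genes that flank LPIN1 had a median of 0.28, with 19 higher and 3 lower. Those that flank ULK1 and TFE3 had medians of -0.22 and -0.20, and the part of the flanks was not tested.

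In the energy-sensing arm, AMPK and LKB1, 1 of 5 tested genes was higher and 2 were lower. PRKAB2, a beta subunit of AMPK, rose by 1.03 (SE 0.10, adjusted p = 1.04e-04), the gamma subunit PRKAG1 fell by 0.35 (adjusted p = 0.0108) and the alpha subunit PRKAA1 fell by 0.25 (adjusted p = 0.0229). The PRKAA1 call was lost in 6 of 18 alternatives: with the mean of its probes, with the replicate block (adjusted p = 0.0534), and without resistant replicate 2 or any 1 of the parental replicates, with adjusted p up to 0.129. Of 15 tested subunits and accessory proteins of the vacuolar ATPase, the proton pump that SLC38A9 and Ragulator work with, 5 were higher and 6 lower. ATP6V1B2 fell by 0.77, in a stretch of chromosome 8 where 31 of 40 flanking genes were lower and none higher. ATP6V1E1, on chromosome 22, rose by 0.67, and ATP6V0A2 fell by 0.47, with 18 of its 40 flanking genes lower and 2 higher.

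**Figure D4:**
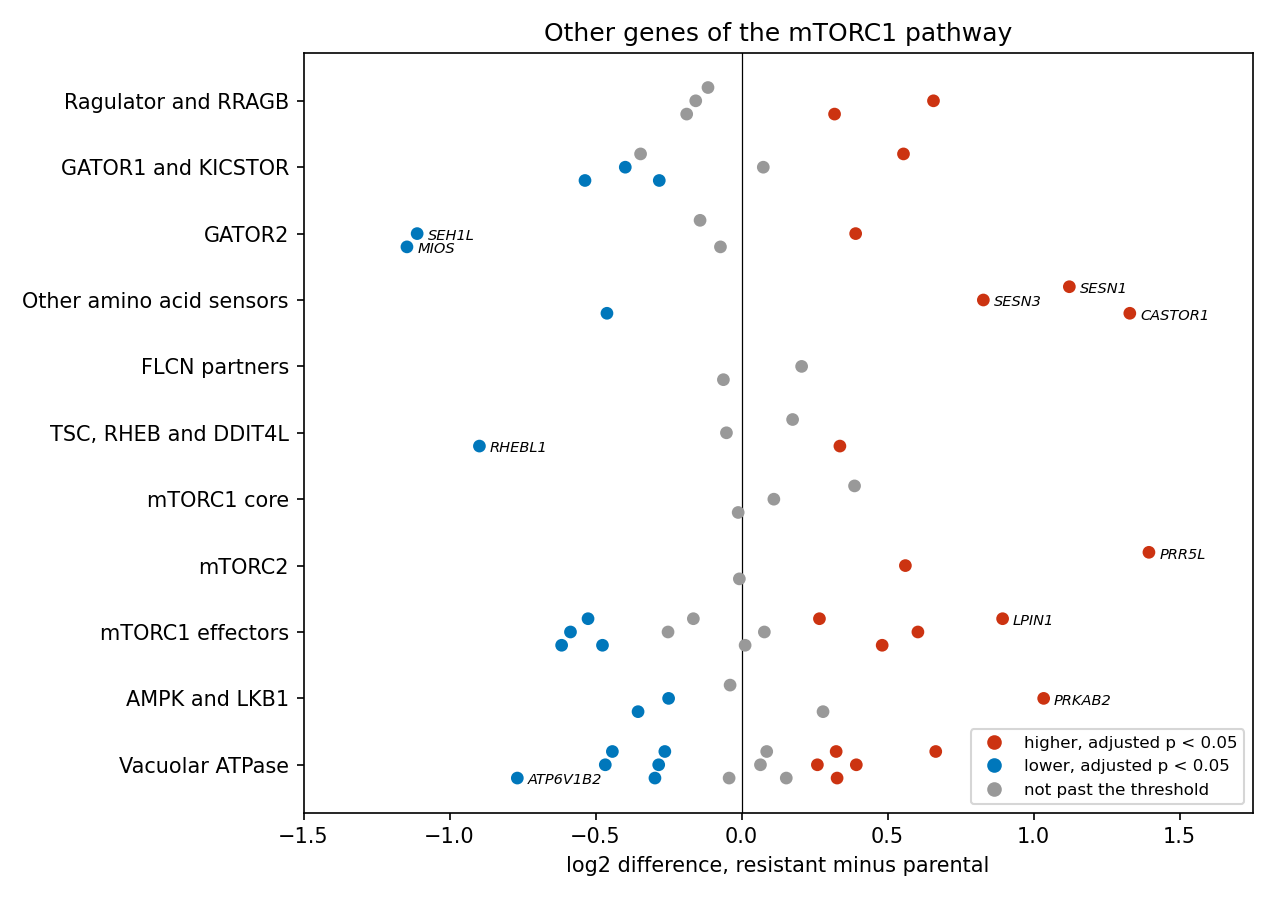
Log2 difference, resistant minus parental (x axis), of the 64 tested genes in the 11 pathway lists (rows), coloured by call. Called genes lie on both sides of 0 in most rows, with CASTOR1, SESN1 and SESN3 to the right and MIOS and SEH1L to the left.

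The genes whose values over the 6 arrays were most like those of DDIT4 were PRELID3B, ID1 and BLVRA, each with a Pearson correlation of 0.999 and lower in the resistant cells by log2 differences of -0.63, -0.66 and -1.05. The 6 arrays fall into 2 groups, so these correlations rest mostly on the gap between the groups, and they are given as a description.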

How the data were processed

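Per the labels' protocols, total RNA was turned into biotin-labelled cRNA and hybridised to Illumina expression arrays. The authors deposited 1 table of intensity values on a linear scale with a detection p-value for each probe, and no correction is named. They also deposited log2 values of the same arrays, whose normalisation the sources used here do not give and whose rank order follows the intensities. In 3269 consecutive rows the deposited intensity and detection columns were exchanged, with the natural log of the intensity in the detection column. These rows were restored by exponentiation (rank correlation with the deposited log2 values 1), and none of the probes of the 10 genes lies in them.

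Intensities were corrected with normexp from the detection p-values (offset 16), quantile normalised and log2 transformed by the neqc function of limma (version 3.58.1, under R 4.3.3). A probe was kept when its detection p was below 0.05 on each of the 3 arrays in either group, which held for 17843 of 47225. Genes were named from the platform annotation, updated through RefSeq (GRCh38.p14). Of the probes 30111 had 1 gene name, 30072 of them with a RefSeq gene, 8 had several names and 17106 had none. A gene was represented by its brightest kept probe. The test was limma (lmFit, eBayes), two-sided and without a covariate, with Benjamini-Hochberg adjustment over 10672 genes and a threshold of 0.05. Where every probe of a gene was undetected in the dimmer group, the fold is a bound (at least N-fold). It was taken against the larger, on each dim array, of the gene's signal and the lowest signal of any detected probe. The bound holds for this correction only and does not allow for the spread between arrays. The members and pathway lists were chosen with earlier results of these data known. Named are all 10 members, up to 3 called genes with the largest change per pathway list, and the 3 genes most correlated with the most changed member. Outside this rule, FNIP1, FNIP2, MTOR, MLST8 and AKT1S1 are named as the tested genes of lists without a call, and SAR1B as the lower gene of its list, after their values were seen. The procedure was also run on simulated arrays, drawn with independent noise for each probe, and the outcome is not given here. Alternatives covered background correction, normalisation, detection filter, probe choice, array weights, intensity trend, replicate block and each array left out. Same-numbered arrays did not deviate together, so the numbers were not taken as pairs.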

Additional observations from a re-analysis of the deposited data

How the results depend on the processing

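DDIT4, SESN2 and RRAGD stayed lower and past the threshold in all 18 alternatives, as did DEPTOR, higher, in the 17 that tested it, and TSC2, higher, in 14. SLC38A9, RRAGA, RRAGC and RPTOR passed it in none, and the first 3 of these changed sign in 2 or 3; FLCN passed it in none of the 5 that tested it. Higher members numbered 1 under median scaling, 1 at a detection threshold of 0.01, and 1 to 2 with an array left out. Under median scaling 12 pathway genes were higher, and over all genes 1466 were higher and 3774 lower, against 2384 and 2454. Median scaling shifted the median of all genes by -0.15; relative to it DDIT4 was at -1.41, SESN2 at -0.40, RRAGD at -0.48, TSC2 at 0.47 and DEPTOR at 0.83. With the replicate number as a block, 2 members were higher and 3 lower, and 20 pathway genes were higher and 17 lower; PRKAA1 was the named gene that lost its call. Same-numbered arrays had correlated deviations of -0.07, -0.0012 and 0.05, so the numbers gave no evidence of pairing. Without background correction the differences of dim probes were smaller (SESN2 -0.19, TSC2 0.23, DEPTOR 0.22, CASTOR1 0.55). Signal near background limits genes such as DEPTOR, FLCN, SESN3, DEPDC5, RHEBL1, RPTOR and, in the parental cells, CASTOR1. Leaving out the exchanged rows, an alternative chosen after seeing the data, left the member and pathway counts as they were. The causes were not tested.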
